A study of Mus musculus with 12 samples.

Results

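The 52 genes described here encode proteins of the mitotic spindle, the kinetochore and cytokinesis, taken by gene symbol from the 14264 genes of the deposited comparisons. Each had a mean normalized count of at least 10, so all 52 listed genes were measured and none was lost to that minimum. Genes named as kinesins and cyclin, cohesin and condensin genes were not among them. Cenpe, which encodes a kinetochore motor of the kinesin family, was among them. The samples were macrophages grown from mouse bone marrow. Control cells, labelled wild type, carried a control short hairpin RNA (shCTRL) and knockdown cells carried a hairpin against MOF (shMOF), the lysine acetyltransferase encoded by Kat8. Each kind was either left unstimulated or given lipopolysaccharide (LPS), a bacterial cell wall product, at 100 ng/ml for 3 h, which made 4 groups of 3 libraries and 12 libraries in all. A hairpin was thus present in every group, and the labels name neither another hairpin against MOF nor a rescue. Nothing in the labels ties the numbered libraries of a group to separate animals or cultures, so p-values measure the spread between these samples alone, which may be technical.

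When a cell divides, its duplicated chromosomes are captured by spindle microtubules at the kinetochore, a layered protein structure built on the centromere. The spindle checkpoint holds the anaphase-promoting complex back until every kinetochore is attached, after which sister chromatids separate and the cell is cleaved between the poles. Many genes of this machinery are transcribed in a wave in late G2 and mitosis, and their mRNAs are scarce in resting cells. A promoter element called the CHR, read by the MuvB complex together with the DREAM repressor or with B-MYB and FOXM1, is a known feature of many of them, often with CCAAT boxes bound by NF-Y nearby. Primary macrophages in culture can still divide in response to M-CSF, and LPS is known to halt that division.

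The tables used here hold comparisons and no value per library, so each gene is given by its mean normalized count over libraries that the files do not specify, and by its log2 fold change of shMOF over shCTRL with its standard error (SE) in each LPS state. The depth of each library is unknown. Kat8 itself was lower with the hairpin, with a log2 fold change of -2.25 (SE 0.10) in unstimulated cells and -2.31 (SE 0.13) after LPS per the authors' deposited table. The macrophage label was checked against 10 markers, and all 10 were measured, with mean normalized counts from 1233 (Mertk) to 259735 (Lyz2) per the authors' deposited table. In these bulk samples, fewer dividing cells and less RNA per cell cannot be told apart.

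Promoter sequences are shown for the genes at the ends of the comparisons, since the members moved together and share promoter letters. RefSeq promoters on GRCm38.p6, from 250 bases before to 50 after each annotated start, were found for 44 of the 52 genes, 43 by their own symbol and 1, Casc5, under the symbol Knl1. Capitals mark the CHR (TTTGAA), the CCAAT box (CCAAT, or ATTGG where it lies on the other strand) and, where present, the CDE with the CHR (GCGG, then 4 bases of any kind, then TTTGAA). Prc1 had the lowest Wald statistic, the fold change over its SE, of these genes in both LPS states. Pttg1 had the highest statistic in unstimulated cells, and Mki67 the highest after LPS and for the difference between the states. Cenpf and Cdca5 were the 2 genes whose promoter held the CDE with the CHR. The promoters lie at chr7:80294201-80294500 on the plus strand (Prc1), chr11:43425932-43426231 on the minus strand (Pttg1), chr7:135716330-135716629 on the minus strand (Mki67), chr1:189688037-189688336 on the minus strand (Cenpf) and chr19:6084847-6085146 on the plus strand (Cdca5).
Prc1: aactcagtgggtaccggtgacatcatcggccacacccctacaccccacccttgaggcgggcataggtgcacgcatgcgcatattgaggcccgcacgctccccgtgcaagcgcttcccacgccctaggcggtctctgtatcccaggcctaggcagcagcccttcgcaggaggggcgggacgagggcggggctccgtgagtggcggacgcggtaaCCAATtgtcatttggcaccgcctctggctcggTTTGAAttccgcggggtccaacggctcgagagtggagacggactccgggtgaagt
Pttg1: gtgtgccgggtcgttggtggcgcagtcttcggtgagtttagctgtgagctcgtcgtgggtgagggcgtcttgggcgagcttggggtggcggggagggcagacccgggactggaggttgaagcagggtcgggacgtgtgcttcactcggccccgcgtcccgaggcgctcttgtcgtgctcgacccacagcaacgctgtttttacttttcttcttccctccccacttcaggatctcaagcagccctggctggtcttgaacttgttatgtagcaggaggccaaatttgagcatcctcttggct
Mki67: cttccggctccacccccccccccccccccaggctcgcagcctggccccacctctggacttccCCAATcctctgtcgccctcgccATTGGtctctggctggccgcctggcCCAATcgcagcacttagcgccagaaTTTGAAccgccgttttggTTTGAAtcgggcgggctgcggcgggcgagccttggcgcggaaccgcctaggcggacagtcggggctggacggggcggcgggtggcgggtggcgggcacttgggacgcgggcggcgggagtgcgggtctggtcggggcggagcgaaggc
Cenpf: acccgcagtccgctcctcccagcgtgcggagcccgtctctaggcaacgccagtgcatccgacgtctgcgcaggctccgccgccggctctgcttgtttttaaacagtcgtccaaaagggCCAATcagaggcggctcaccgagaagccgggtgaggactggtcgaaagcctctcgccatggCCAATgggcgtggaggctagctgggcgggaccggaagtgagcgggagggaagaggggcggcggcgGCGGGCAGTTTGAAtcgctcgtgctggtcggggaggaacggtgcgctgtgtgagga
Cdca5: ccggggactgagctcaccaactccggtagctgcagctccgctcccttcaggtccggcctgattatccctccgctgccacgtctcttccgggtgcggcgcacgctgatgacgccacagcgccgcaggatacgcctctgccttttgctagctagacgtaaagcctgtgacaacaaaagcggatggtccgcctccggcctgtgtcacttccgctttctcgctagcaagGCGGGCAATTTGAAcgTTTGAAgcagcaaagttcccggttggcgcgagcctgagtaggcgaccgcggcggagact

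The Mki67 promoter held the CHR at 2 places with 3 CCAAT boxes upstream of them, and the printed Prc1 promoter held 1 of each. Prc1 has 2 promoters, and the printed one was chosen by how many kinds of these motifs it held. In the Pttg1 window none of the searched letters was found, which says only that they are not in this window. That window lies wholly inside the annotated gene, which spans positions 43420250 to 43426251. It thus holds no sequence upstream of the outermost annotated start, and whether the letters occur there was not tested.

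The CHR letters were common in these promoters. Searched on both strands, TTTGAA was present in a promoter of 29 of the 44 genes, or 65.9% (95% exact binomial interval 50.1 to 79.5). The share was 14.4% of the 9346 measured genes with a promoter and 20.2% of all 27025 genes of the table. The interval treats the 44 genes as a random sample. They and the motifs were chosen with earlier results known, so it is no test. A gene with several promoters, as 5 of the 44 had, was counted if any of them held the motif. CCAAT was present in 31 of the 44, or 70.5% (54.8 to 83.2), against 42.8% of measured genes. The variant TTCGAA was in 4 (9.09%, against 2.47% of measured genes), the CDE with the CHR in 2 (4.55%, against 0.150%), and an E2F-type site (TTTNNCGC, each N being C or G) in 1, Cenpm (2.27%, against 4.76%). The CDE with the CHR contains the CHR letters and so overlaps that motif by construction. Genes with the CHR had a median log2 fold change of -2.11 in unstimulated cells, ranging from -2.56 to -0.23. The 15 without it had -1.85, ranging from -2.37 to 0.18, so the ranges overlapped over most of their length. After LPS the medians were -1.36 with the CHR and -0.91 without it. Those 15 include Pttg1, the gene at 0.18, and Bub1 and Cenpm, which hold the variant TTCGAA. A match describes letters and does not show that a factor was bound there.

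**Figure D1:**
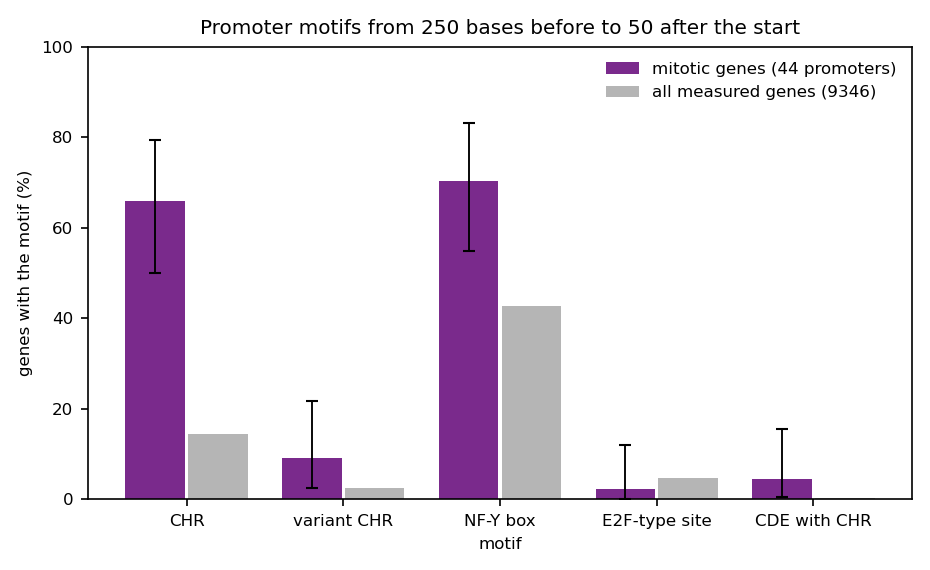
Share of genes (%) whose promoter holds each motif, for the 44 mitotic genes with a promoter (purple; bars show the 95% exact binomial interval) and for all 9346 measured genes with a promoter (grey). The CHR stood at 65.9% against 14.4% and the CCAAT box, labelled NF-Y box, at 70.5% against 42.8%.

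In unstimulated macrophages nearly all of the 52 genes were lower with the hairpin against MOF: 51 fell and 0 rose at an adjusted p under 0.05, where 17.8% of all 14264 genes tested fell and 21.3% rose (39.1% in either direction). The median log2 fold change was -2.001, so the median gene kept 25.0% of its control level, while the median over all genes with a mean of at least 10 was 0.03. By size, 46 genes were at least 2-fold lower and 26 at least 4-fold lower. Of the 100 lowest statistics among all genes, 29 belonged to these 52, led by Prc1 at rank 2, Nusap1 at rank 4, Mki67 at rank 5, Hmmr at rank 7 and Ube2c at rank 8. The gene left uncalled was Pttg1, which encodes securin, the inhibitor of separase, at 0.18 (SE 0.10, adjusted p = 0.144) per the authors' deposited table.

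After 3 h of LPS most of the genes were still lower in knockdown cells, but by less. There 47 fell and 2 rose, where 20.0% of the 13987 genes tested fell and 28.1% rose (48.0% in either direction), and the median log2 fold change was -1.22, or 42.9% of control, beside 0.03 over all genes. At least 2-fold lower were 37 genes, and 0 were at least 4-fold lower. The 2 genes that rose were Mki67 and Pttg1, and the 3 not called were Cenpa, Cenpt and Melk. Of these 47, 20 were still called lower under an empirical null. It centres the statistics on the median of all genes and divides them by their spread, and called 3.47% of all genes. The 20 were Aspm, Aurka, Birc5, Bub1, Cdca3, Cdca8, Cep55, Ckap2l, Dlgap5, Ect2, Hmmr, Incenp, Nusap1, Plk1, Prc1, Racgap1, Spc25, Tacc3, Top2a and Ube2c.

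The fall in unstimulated cells was deeper than the fall after LPS for most genes, by a test of the difference itself. The difference, LPS 3 h minus unstimulated, was positive for 50 of the 52 and called for 40, of which 39 were higher, or less negative, after LPS and 1, Incenp, was lower. Over the 12994 genes in that test 18.2% were called higher and 12.4% lower. The median difference was 0.74 on the log2 scale, beside 0.008 over all genes. The count of 39 was 21 when changes of up to 0.25 were taken as null and 7 under the empirical null. Those 7 were Cenpe, Ckap2l, Mad2l1, Melk, Mki67, Nusap1 and Tpx2. SEs were larger after LPS for 41 of the 52, with a median of 0.132 against 0.106 and a median ratio of 1.21 per gene, where the ratio was 0.973 over all genes. Across the 52 genes the order of effects was partly shared between the states (Spearman's rho 0.62, and 0.66 without Mki67), a description over genes that share the same libraries.

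**Figure D2:**
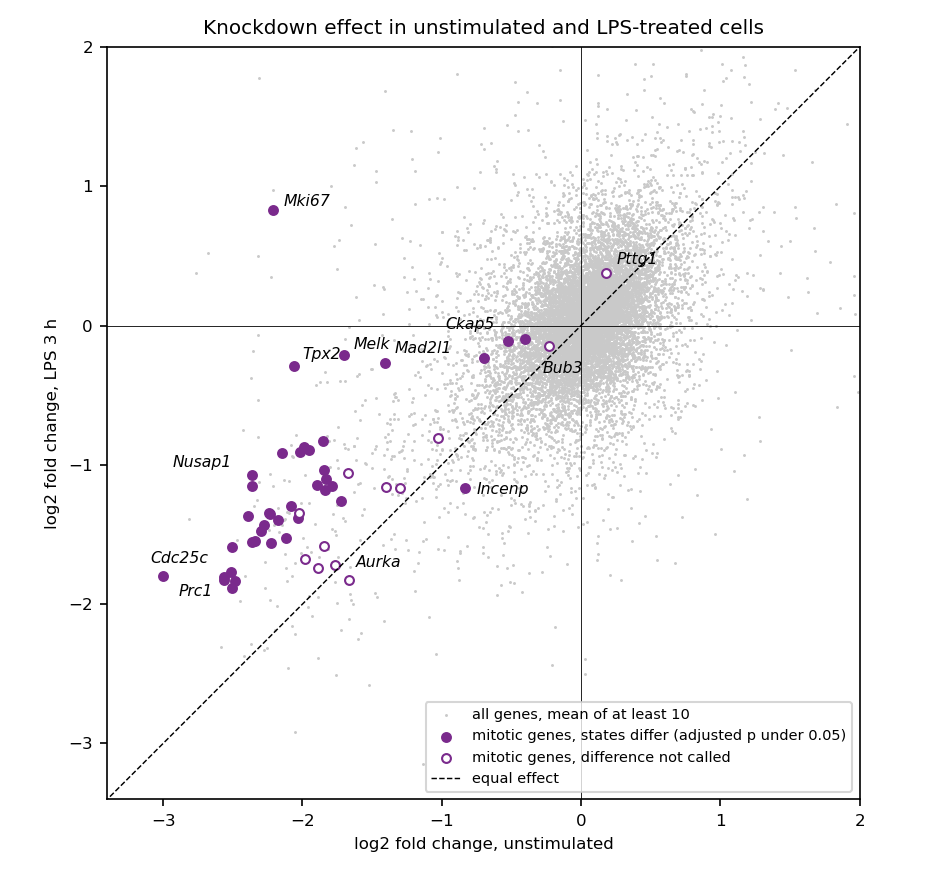
Log2 fold change of shMOF over shCTRL in unstimulated cells (x axis) and after 3 h of LPS (y axis), with the mitotic genes in purple (filled where the 2 effects differed at an adjusted p under 0.05) over all genes with a mean of at least 10 in grey, 19 of which lie outside the axes. Of the 52 purple points, 50 lie above the dashed line of equal effect, and Mki67 stands apart at -2.21 and 0.83.

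Among the mitotic kinases and the phosphatase of mitotic entry, Cdc25c, Pbk and Plk1 were among the lowest of the 52 in unstimulated cells, while Aurka and Melk lay above the median. Pairs of values are log2 fold changes in unstimulated cells and then after LPS. All 5 fell in unstimulated cells (median -2.51) and 4 fell after LPS (median -1.77). Cdc25c, the phosphatase that activates CDK1, had the deepest fall of the 52 genes in unstimulated cells, at -3.001 (SE 0.24), and -1.80 (SE 0.30) after LPS per the authors' deposited table, on a low mean normalized count of 53.5. Pbk, a kinase active in mitosis, had -2.56 (SE 0.13) and -1.83 (SE 0.20) per the authors' deposited table. Plk1, a kinase of centrosome maturation, chromosome attachment and cytokinesis, had -2.51 (SE 0.13) and -1.77 (SE 0.17) per the authors' deposited table. Aurka, the spindle pole kinase, had nearly the same value in both states, -1.77 (SE 0.14) and -1.72 (SE 0.16) per the authors' deposited table, and its difference of 0.05 had a 95% interval from -0.36 to 0.45. Melk, a kinase of dividing cells and progenitors, had -1.70 (SE 0.13) unstimulated and -0.21 (SE 0.13, adjusted p = 0.152) after LPS per the authors' deposited table. That difference for Melk, 1.49 (SE 0.18, adjusted p = 2.94e-15), was the third largest of the 52. Under the empirical null the calls of Cdc25c and Pbk after LPS ended.

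Spindle checkpoint genes all fell in both states, with medians of -1.84 and -0.87. Bub1, a kinase that docks checkpoint proteins on the kinetochore, had -2.22 (SE 0.11) unstimulated and -1.56 (SE 0.13) after LPS per the authors' deposited table. Bub1b, which encodes the checkpoint effector BUBR1, had -1.84 (SE 0.08) and -1.18 (SE 0.12) per the authors' deposited table. The wider gaps between the states were in Ttk, which encodes the initiating kinase MPS1, and Mad2l1, which encodes the CDC20 inhibitor MAD2. Ttk stood at -1.99 (SE 0.14) and -0.87 (SE 0.20), and Mad2l1 at -1.41 (SE 0.09) and -0.27 (SE 0.09), per the authors' deposited table. Bub3, the partner of BUB1 and BUBR1, changed least, at -0.23 (SE 0.05) and -0.14 (SE 0.05) per the authors' deposited table. Both Bub3 calls, and the call of Mad2l1 after LPS, ended when changes of up to 0.25 were taken as null and under the empirical null. The calls of Bub1b and Ttk after LPS also ended under the empirical null. The mean count of Bub3 per kilobase of exon, 287.2, was the fourth highest of the 52, for which the median was 73.1.

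In the chromosomal passenger complex, which corrects faulty attachments and then moves to the midzone, all 4 genes fell in both states, with medians of -1.62 and -1.35. Birc5, which encodes survivin, fell most in unstimulated cells, at -2.34 (SE 0.10) against -1.55 (SE 0.13) after LPS per the authors' deposited table. The kinase gene Aurkb had -1.84 (SE 0.13) and -1.58 (SE 0.17), and Cdca8, which encodes borealin, -1.40 (SE 0.10) and -1.16 (SE 0.11), per the authors' deposited table, and neither differed detectably between states (adjusted p = 0.372 and 0.223). The scaffold gene Incenp ran the other way, with -0.84 (SE 0.06) unstimulated and -1.16 (SE 0.07) after LPS per the authors' deposited table. Its difference of -0.33 (SE 0.09, adjusted p = 0.0018) was the only one of the 52 called lower, and it was not called when changes of up to 0.25 were taken as null. Incenp spans positions 9872296 to 9899551 of chromosome 19 (GRCm38, minus strand). Under the empirical null the call of Aurkb after LPS ended.

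Inner kinetochore and centromere genes fell in 7 of 7 cases unstimulated (median -1.79) and in 5 of 7 after LPS (median -0.89). Cenpi, Cenph, Cenpm, Cenpn and Cenpk, subunits of the constitutive centromere network, lay between -1.96 and -1.68 unstimulated and between -1.15 and -0.83 after LPS per the authors' deposited table. Cenpt, the subunit that links that network to the outer kinetochore, had -0.40 (SE 0.08) and -0.10 (SE 0.08, adjusted p = 0.315) per the authors' deposited table. Cenpa, the histone H3 variant that marks the centromere, had -0.70 (SE 0.13) and -0.23 (SE 0.13, adjusted p = 0.116) per the authors' deposited table. Both unstimulated calls, for Cenpa and Cenpt, ended under the empirical null, and so did all 5 calls after LPS. Cenpt and Cenpa fell least of the 7 in unstimulated cells. The 5 subunits named together were grouped with these values known, so their distance from Cenpt and Cenpa is no test.

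Outer kinetochore genes, whose products grip the microtubule, fell in 7 of 7 cases in both states, with medians of -2.11 and -1.26. All 7 differences were called higher, but under the empirical null only that of Cenpe kept its call. Of the 7 falls after LPS, only that of Spc25 kept its call under that null. The 4 subunits of the NDC80 complex lay together in unstimulated cells. Nuf2 stood at -2.15 (SE 0.12), Spc25 at -2.11 (SE 0.12), Spc24 at -1.83 (SE 0.16) and Ndc80 at -1.72 (SE 0.11) per the authors' deposited table. After LPS they were further apart, with Spc25 at -1.53 (SE 0.14) and Nuf2 at -0.91 (SE 0.14) per the authors' deposited table. Casc5, the checkpoint platform also known as Knl1, was the lowest of the outer genes in both states, at -2.48 (SE 0.13) and -1.84 (SE 0.20) per the authors' deposited table. Cenpf, a large corona protein, had -2.30 (SE 0.12) and -1.48 (SE 0.17), and Cenpe, the kinetochore motor, -2.02 (SE 0.09) and -0.91 (SE 0.09), per the authors' deposited table.

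Of the spindle microtubule factors 10 of 10 fell in both states, with medians of -2.15 and -1.35. Aspm, a spindle pole protein, and Hmmr, which anchors spindle assembly factors, both stood at -2.51 in unstimulated cells, and at -1.89 (SE 0.18) and -1.59 (SE 0.12) after LPS, per the authors' deposited table. Ckap2l and Ckap2, related spindle proteins, had -2.39 (SE 0.10) and -2.23 (SE 0.13) unstimulated, and both were near -1.36 after LPS, per the authors' deposited table. Nusap1, a microtubule bundler near chromosomes, went from -2.37 (SE 0.08) to -1.08 (SE 0.08) per the authors' deposited table. Dlgap5, a stabilizer of kinetochore fibres, and Troap, a spindle-associated protein, had -2.03 and -2.02 unstimulated and -1.38 and -1.35 after LPS per the authors' deposited table. Tpx2, which activates Aurora A on the spindle, differed most between states in this group. It had -2.06 (SE 0.10) unstimulated and -0.29 (SE 0.09) after LPS per the authors' deposited table, a difference of 1.77 (SE 0.13, adjusted p = 1.04e-38). Tacc3 and Ckap5, which act together on kinetochore fibres, changed least in unstimulated cells, at -1.03 (SE 0.07) and -0.52 (SE 0.05) unstimulated and -0.81 (SE 0.07) and -0.11 (SE 0.04) after LPS per the authors' deposited table. After LPS the calls of Tpx2 and Ckap5 ended under the empirical null and with changes of up to 0.25 as null. Those of Ckap2 and Troap also ended under the empirical null.

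Anaphase and ubiquitin genes held the 1 gene of the 52 that did not fall in unstimulated cells. Cdc20, the activator of the anaphase-promoting complex, had -2.36 (SE 0.12) unstimulated and -1.15 (SE 0.14) after LPS, and Ube2c, its ubiquitin-conjugating enzyme, -2.28 (SE 0.09) and -1.43 (SE 0.09), per the authors' deposited table. Cdca3, an adaptor for degradation of the entry inhibitor WEE1, had -2.24 (SE 0.10) and -1.35 (SE 0.12) per the authors' deposited table. Separase (Espl1), which cuts cohesin, had -1.30 (SE 0.11) and -1.17 (SE 0.15), and sororin (Cdca5), which protects it, -1.67 (SE 0.12) and -1.83 (SE 0.20), per the authors' deposited table. Securin (Pttg1) was at 113.2% of control unstimulated and at 130.2% after LPS, where its log2 fold change of 0.38 (SE 0.09, adjusted p = 4.37e-05) passed per the authors' deposited table. That call ended when changes of up to 0.25 were taken as null and under the empirical null. After LPS the calls of Cdc20, Cdca5 and Espl1 also ended under the empirical null. Securin and separase form 1 complex, and of these partners separase alone fell. Pttg1 spans positions 43420250 to 43426251 of chromosome 11 on the minus strand, and its level of 338.7 counts per exonic kilobase was the second highest of the 52.

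All 5 cytokinesis genes fell in both states, with medians of -2.08 and -1.56. Prc1, which bundles antiparallel microtubules in the spindle midzone, had -2.56 (SE 0.08, adjusted p = 1.00e-237) unstimulated and -1.81 (SE 0.09) after LPS per the authors' deposited table. The gene spans positions 80294450 to 80316259 of chromosome 7 on the plus strand and shares 911 exonic bases with Rccd1 on the opposite strand. Cep55, needed for abscission, had -2.36 (SE 0.11) and -1.56 (SE 0.13), and the ring scaffold anillin (Anln) -2.08 (SE 0.10) and -1.30 (SE 0.13), per the authors' deposited table. Racgap1, a subunit of centralspindlin, and Ect2, the RhoA activator that it recruits, were alike in unstimulated cells, at -1.89 (SE 0.08) and -1.89 (SE 0.10) per the authors' deposited table. After LPS Racgap1 was at -1.14 (SE 0.09) and Ect2 at -1.74 (SE 0.16) per the authors' deposited table. The change between states was called for Racgap1 (0.75, SE 0.12, adjusted p = 4.91e-09) and was 0.15 (SE 0.19, adjusted p = 0.603) for Ect2. Under the empirical null the call of Anln after LPS ended.

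Among the 3 factors of mitotic chromosomes, Mki67 reversed its direction. Mki67 encodes Ki-67, the surface layer of mitotic chromosomes and a common marker of dividing cells. It was at 21.6% of control in unstimulated cells, at a log2 value of -2.21 (SE 0.07, adjusted p = 1.46e-187), and at 177.5% after LPS, with 0.83 (SE 0.06, adjusted p = 1.62e-35), per the authors' deposited table. The difference of 3.04 (SE 0.10, 95% interval 2.84 to 3.23) was the largest of the 52, and its call and both directions held under centring, each adjustment, a null of changes up to 0.25 and the empirical null. Its rise after LPS was short of a minimum log2 change of 1. Mki67 spans positions 135689784 to 135716361 of chromosome 7 on the minus strand and had the highest level of the 52, 545.9 counts per exonic kilobase. Topoisomerase 2 alpha (Top2a), which untangles sister chromatids, had -2.18 (SE 0.10) and -1.39 (SE 0.09), and Cdca2, the phosphatase subunit Repo-Man, -1.98 (SE 0.12) and -1.68 (SE 0.22), per the authors' deposited table. Under the empirical null the call of Cdca2 after LPS ended. Mki67 was the 1 gene of the 52 that fell in one state and rose in the other.

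**Figure D3:**
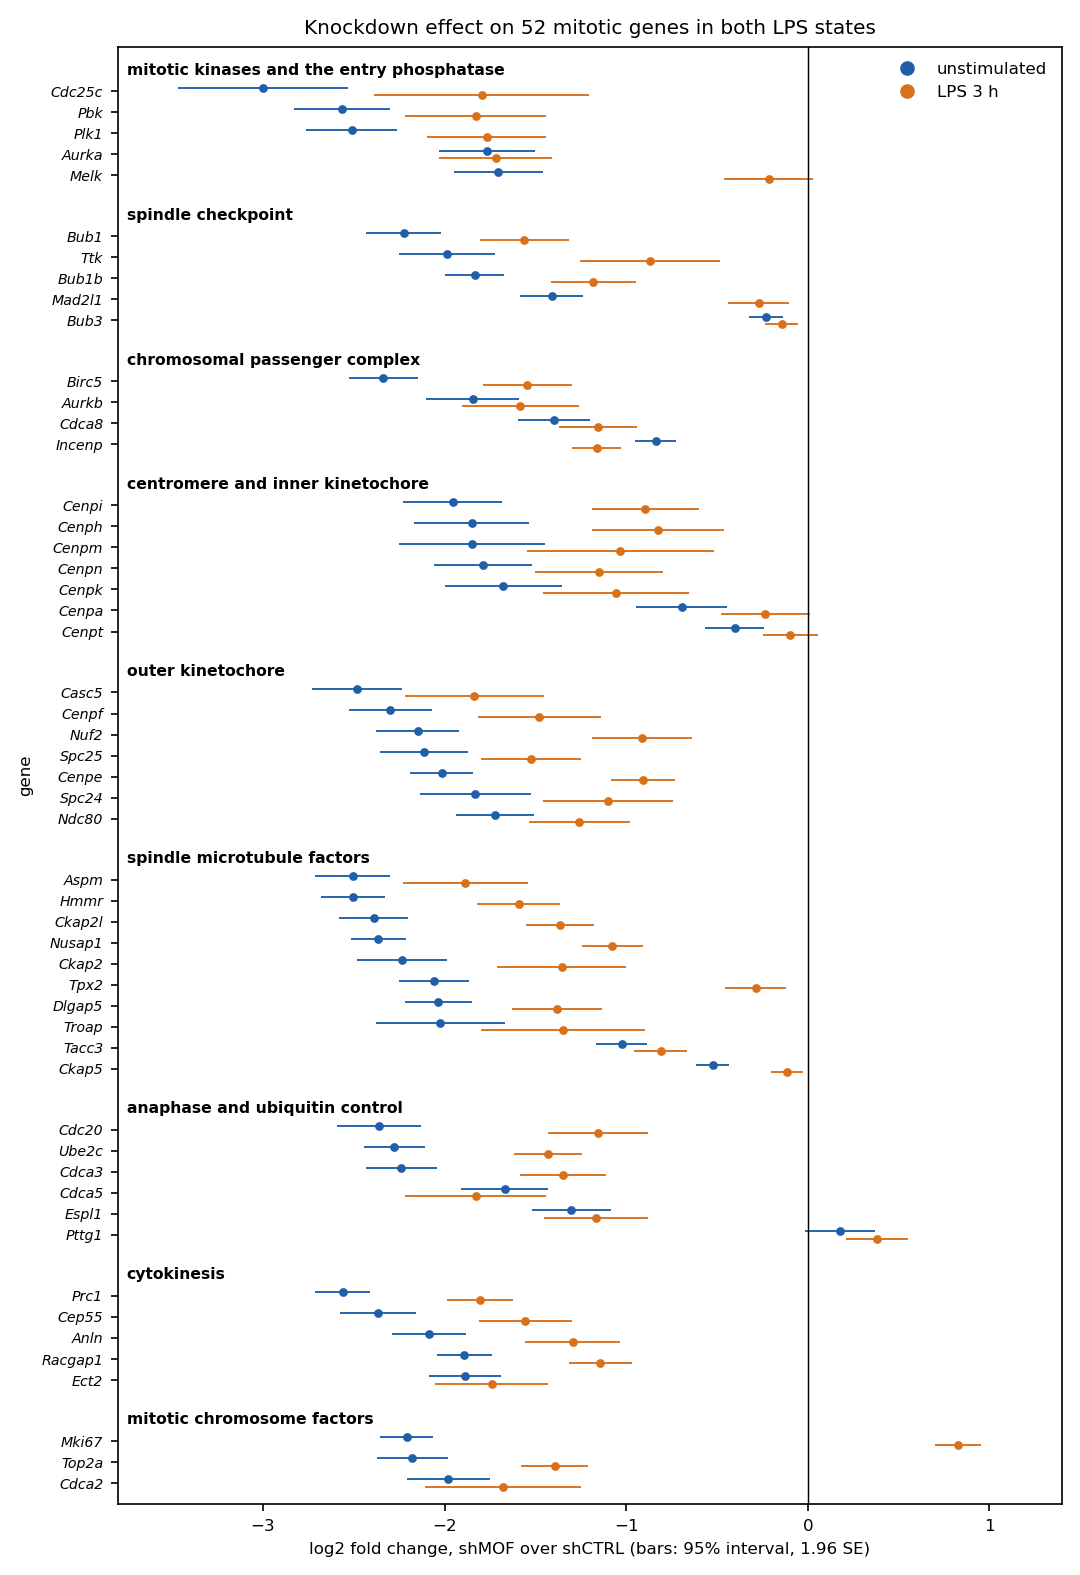
Log2 fold change of shMOF over shCTRL for each of the 52 genes by role, in unstimulated cells (blue) and after 3 h of LPS (orange), with bars for the 95% interval. Blue points lie between -3.001 and 0.18 and orange points between -1.89 and 0.83, and Mki67 and Pttg1 are the 2 genes with an orange point above 0.

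Counting without strand would mix reads of genes that overlap on opposite strands, and whether the authors' counting used strand is not given in the sources used here. Besides Prc1, exons overlapped a measured gene on the other strand for Cdc20 (Elovl1, 53 bases), Nusap1 (Oip5, 172), Tacc3 (Tmem129, 289), Cdca8 (9930104L06Rik, 232) and Cenpk (Ppwd1, 233). Their fold changes are uncertain to that extent.

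Other genes of the same processes, in 5 lists of 96 measured genes, moved less as a whole. Of these 96, 67 fell and 7 rose unstimulated (median -0.54), and 52 fell and 16 rose after LPS (median -0.24). Over all genes tested, 17.8% fell and 21.3% rose unstimulated, and 20.0% fell and 28.1% rose after LPS. Kinetochore and centromere genes outside the 52 came nearest, 23 of 25 falling and 1 rising unstimulated (median -1.13), then 18 falling and 0 rising after LPS (median -0.67). Among them were Knstrn, a kinetochore fibre protein, at -1.76 (SE 0.09), and Kntc1, of the RZZ complex, at -1.98 (SE 0.12), unstimulated per the authors' deposited table. Their exception was Zwint, a KNL1 partner, at 0.13 (SE 0.05, adjusted p = 0.0396) per the authors' deposited table. Of 12 other mitotic entry genes, 10 fell and 0 rose unstimulated, and 7 fell and 3 rose after LPS. The CDK1-inhibiting kinase gene Pkmyt1 and the phosphatase gene Cdc25a were among the 3 that rose, at 0.34 (SE 0.09) and 0.33 (SE 0.08) per the authors' deposited table.

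Subunits of the general machinery moved little by comparison. Of 19 other checkpoint and anaphase genes, largely anaphase-promoting complex subunits, 7 fell and 2 rose unstimulated (median -0.02). After LPS 5 fell and 5 rose (median 0.05), near the shares of all genes tested, 20.0% falling and 28.1% rising. Fbxo5, which encodes the complex's inhibitor EMI1, was the lowest of that list at -1.66 (SE 0.13) and -1.93 (SE 0.24) per the authors' deposited table. Of 26 other spindle and centrosome genes, 19 fell and 1 rose unstimulated (median -0.50), and 15 fell and 2 rose after LPS (median -0.24). Stil had -2.23 (SE 0.15), Spag5 -2.13 (SE 0.11) and the microtubule nucleation partner Haus6 -1.29 (SE 0.10), unstimulated per the authors' deposited table. Tacc1, a relative of Tacc3, rose by 0.35 (SE 0.05) unstimulated and, after LPS, by 0.75 (SE 0.04). Of 14 other cytokinesis genes 8 fell and 3 rose unstimulated (median -0.14), where 21.3% of all genes tested rose. After LPS 7 fell and 6 rose (median -0.08). Citron kinase (Cit), which acts at the midbody, had -1.998 (SE 0.12) and Shcbp1 -2.23 (SE 0.13), unstimulated per the authors' deposited table. The septin gene Sept9 rose by 0.28 (SE 0.04) unstimulated.

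Mitotic kinesins and DNA replication genes bracketed the 52. All 12 kinesins fell in both states, with medians of -2.05 and -1.66. Their difference between states was called higher for 3 of 12, where 18.2% of the 12994 genes in that test were. The median ratio of SE after LPS to SE unstimulated was 1.54 for the kinesins and 1.21 for the 52, so the 2 counts are not alike in precision. Of 35 replication genes 34 fell and 0 rose unstimulated (median -0.95), and 31 fell and 1, Rfc3, rose after LPS (median -0.67). Regulators of mitotic transcription were mixed, with 7 of 13 falling and 1 rising unstimulated (median -0.22). After LPS 7 fell and 4 rose (median -0.11), where 28.1% of all genes tested rose. Foxm1, the activator of late cell cycle genes, fell with -2.08 (SE 0.11) unstimulated and -0.86 (SE 0.12) after LPS per the authors' deposited table. Mybl2, which encodes B-MYB, had -1.75 (SE 0.14) unstimulated per the authors' deposited table. Rbl1, which encodes the DREAM subunit p107, fell unstimulated with -1.03 (SE 0.09) and rose after LPS by 0.22 (SE 0.09, adjusted p = 0.0223) per the authors' deposited table. The cell cycle inhibitor gene Cdkn1a was at -0.09 unstimulated, where it was not called, and rose by 0.49 (SE 0.06) after LPS per the authors' deposited table.

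**Figure D4:**
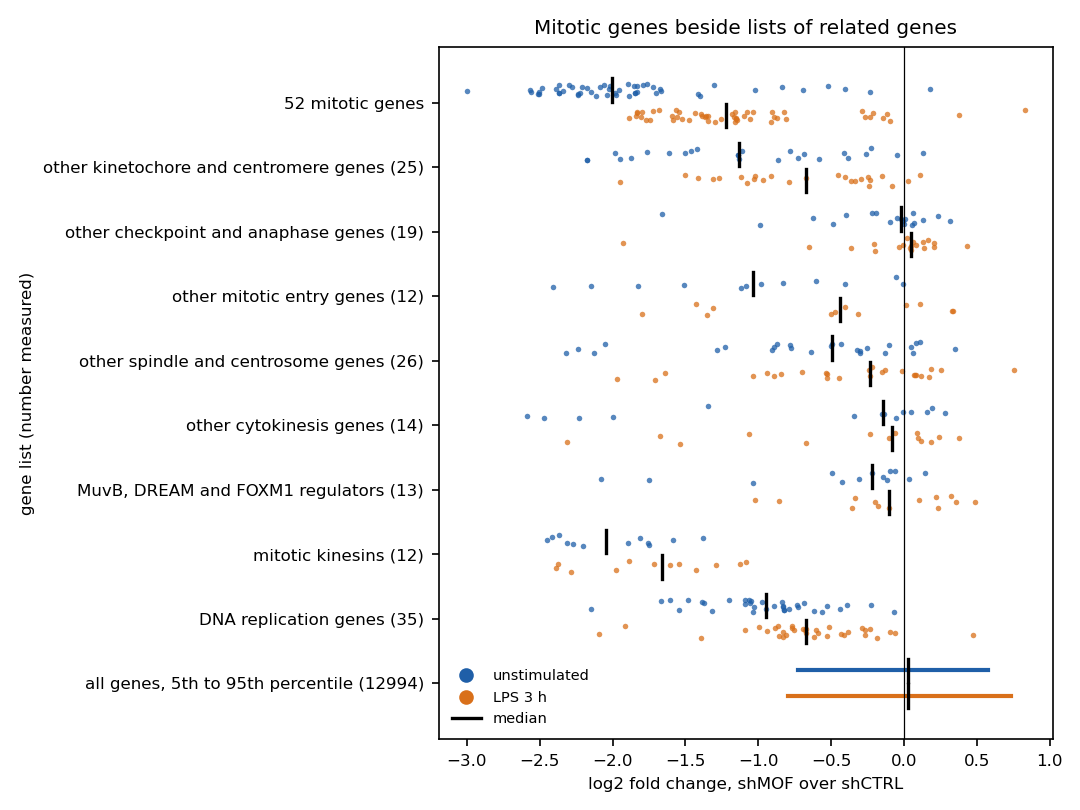
Log2 fold change of shMOF over shCTRL for each measured gene (points) of the 52 mitotic genes and of 8 lists of related genes, with black ticks at the medians; the bottom lines span the 5th to 95th percentile of all genes with a mean of at least 10, from -0.73 to 0.58 unstimulated (blue) and from -0.79 to 0.74 after LPS (orange). The medians of the 52 genes, -2.001 and -1.22, lie below those of every list except the mitotic kinesins, at -2.05 and -1.66.

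Markers of macrophages and of other cells did not move in one direction. All 10 macrophage markers rose in unstimulated knockdown cells, from 0.12 (Cd68) to 0.70 (Mertk), and 8 of 10 rose after LPS, per the authors' deposited table. The shares over all genes tested were 17.8% falling and 21.3% rising unstimulated, and 20.0% falling and 28.1% rising after LPS. Of 10 markers of myeloid progenitors, which divide in marrow, 4 were measured at a mean of at least 10, and 3 fell and 1 rose unstimulated. These were Kit at -1.81 on a mean count of 14.9, Cd34 at -0.93 on 40.5, Ly6a at -0.70 on 998.2 and Cd48 at 0.25 on 4979 per the authors' deposited table. After LPS 2 of these 4 fell and 1 rose. Mpo, Elane, Prtn3, Ctsg and Flt3, the other defining genes of that list besides Gata2, were not analysed here. For neutrophils 1 of 6 markers was measured at that minimum, S100a8, with a mean count of 20.996 and no call in either state. Of 5 stromal markers 2, Col1a1 and Col1a2, rose in both states. Of 4 measured osteoclast markers 1, Ctsk, fell unstimulated and 1, Acp5, rose after LPS. The 6 T and B cell markers and the 4 erythroid markers were not analysed here. The part of these cells in the fall of the mitotic genes was not tested.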

How the data were processed

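RNA of 12 libraries was sequenced as stranded, paired-end mRNA libraries of 100 bp reads, extracted at one time, per the labels' protocol. The submitters' processing notes name DESeq2, without a version, and the mm10 build. The aligner, read counter, annotation and strand setting were not given in the sources used here. Per the file headers, the authors deposited for each gene a mean normalized count, a signal with the same value in both tables. They also deposited a log2 fold change with its SE, a Wald statistic, which is a score, and a p-value with its adjusted form, per the file headers. The deposited score equalled fold change over SE to within 1.53e-13. No values per library were used here, so library depth is unknown and precision is known through the SE alone.

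Calls are the authors' adjusted p under 0.05, where a gene without one (277 genes after LPS) stayed uncalled. For the difference between states, the unstimulated log2 fold change was subtracted from that after LPS and divided by the combined SE (root of the sum of squares). Its two-sided p came from the normal distribution and was adjusted by Benjamini and Hochberg's method across 12994 genes with a mean of at least 10. It takes the errors as uncorrelated. Its trial on simulated data drew uncorrelated normal errors with the deposited SEs, so that trial cannot check this assumption or the size of the SEs. LPS was not compared with no LPS. The members, lists and motifs were chosen with earlier results of these data known. Named genes are Kat8, all 52 members, up to 4 genes of smallest p per related list with those called the other way, and the cell type markers. Promoters were printed for the lowest and highest statistic of each comparison and for up to 2 holders of the CDE with the CHR, where the table held them. For a gene with several promoters, the one with the most kinds of the CHR, its variant and the CCAAT box was printed. The listed gene Mlf1ip was found under the symbol Cenpu. Coordinates and exons are from GENCODE M21 (GRCm38, which is mm10), matched for 14214 genes by Ensembl ID, all 52 members included, and promoters are from RefSeq. Alternatives were centring, thresholds, adjustments over other sets of genes, nulls and a shorter promoter window. Python 3.11.15 was used with numpy 2.4.6, scipy 1.17.1, pandas 2.3.3 and matplotlib 3.10.9.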

Additional observations from a re-analysis of the deposited data

Results flagged for a closer look

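For 40 of the 52 genes the effect of knockdown differed between the LPS states by the test of the difference itself, where 30.6% of all 12994 genes tested did. The values are log2 fold changes at LPS 3 h minus those in unstimulated cells, so a positive value is a smaller fall, or a rise, after LPS. The widest was Mki67 at 3.04 (SE 0.10), which was lower unstimulated and higher after LPS, and its fellow chromosome factor Top2a had 0.78 (SE 0.14). Spindle factors followed, with Tpx2 at 1.77 (SE 0.13), Nusap1 at 1.29 (SE 0.12), Ckap2l at 1.03 (SE 0.14), Hmmr at 0.91 (SE 0.15), Ckap2 at 0.88 (SE 0.22), Dlgap5 at 0.65 (SE 0.16), Aspm at 0.62 (SE 0.20) and Ckap5 at 0.41 (SE 0.07).

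Of the mitotic kinases and the entry phosphatase, Melk had a difference of 1.49 (SE 0.18), Cdc25c of 1.20 (SE 0.39), Plk1 of 0.75 (SE 0.21) and Pbk of 0.73 (SE 0.24). Checkpoint genes differed by 1.14 for Mad2l1 (SE 0.12), 1.12 for Ttk (SE 0.24), 0.66 for Bub1 (SE 0.16) and 0.65 for Bub1b (SE 0.14). At the outer kinetochore the differences were 1.24 for Nuf2 (SE 0.18), 1.11 for Cenpe (SE 0.13), 0.82 for Cenpf (SE 0.21), 0.73 for Spc24 (SE 0.24), 0.65 for Casc5 (SE 0.23), 0.59 for Spc25 (SE 0.19) and 0.47 for Ndc80 (SE 0.18). At the inner kinetochore they were 1.06 for Cenpi (SE 0.20), 1.03 for Cenph (SE 0.25), 0.81 for Cenpm (SE 0.33), 0.64 for Cenpn (SE 0.23), 0.46 for Cenpa (SE 0.18) and 0.31 for Cenpt (SE 0.11).

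Anaphase genes differed by 1.21 for Cdc20 (SE 0.18), 0.89 for Cdca3 (SE 0.16) and 0.84 for Ube2c (SE 0.13). Cytokinesis genes differed by 0.81 for Cep55 (SE 0.17), 0.79 for Anln (SE 0.17), 0.76 for Prc1 (SE 0.12) and 0.75 for Racgap1 (SE 0.12). In the chromosomal passenger complex Birc5 had 0.79 (SE 0.16) and Incenp -0.33 (SE 0.09), the one gene with a deeper fall after LPS by this test.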

How the results depend on the processing

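The 51 genes called lower in unstimulated cells were 46 to 51 under the alternatives, with 46 at a minimum log2 change of 1 and 48 under the empirical null. After LPS the 47 lower calls were 20 under the empirical null, and the 2 higher calls were 0 at a minimum log2 change of 1, 1 when changes of up to 0.25 were taken as null and 1 under the empirical null. For the difference the 39 higher calls were 13, 21 and 7 under these 3 settings in the same order, and the 1 lower call was 0 under each of them. The empirical null centres the statistics on their median over all genes, divides them by their spread and made 568, 486 and 335 calls over all genes for unstimulated cells, LPS and the difference, and 21.7% of the unstimulated calls were then rises, in place of 54.5%. Centring gave medians of -2.03, -1.25 and 0.73. By gene, leaving aside the minimum log2 change, which was not run per gene, 5 results in 3 members lost their call unstimulated, 34 in 28 after LPS and 63 in 33 for the difference, and 0 reversed. The 150-base promoter window gave a CHR share of 63.6%, against 5.82% of measured genes, and a variant CHR share of 4.55% in place of 9.09%. No paired analysis was possible because the deposited comparisons hold no values per library, and for the same reason no replicate could be left out. Means under 100 normalized counts, as for Cdc25c, Cenpm and Troap, went with the widest SEs.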

Other observations

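Of the 52 genes, 8 start within 1000 bp of a measured neighbour transcribed the other way, and these neighbours moved less than the mitotic gene beside them, with 1 exception. Their median log2 fold change was -0.39 unstimulated, where 4 of 8 fell and 0 rose, and -0.22 after LPS, where 6 fell and 0 rose. Of all genes tested 17.8% fell unstimulated and 20.0% after LPS, so these 8 neighbours fell more often than genes at large. Zfpl1, whose start is 27 bases from that of Cdca5, had -0.01 (SE 0.07) unstimulated in the authors' deposited table, while Cdca5 had -1.67 (SE 0.12). Usp5, 63 bases from Cdca3, had -0.07 (SE 0.04), and Cstf1, 146 bases from Aurka, had -0.10 (SE 0.06), unstimulated in the authors' deposited table. Kctd9, beside Cdca2, had -0.54 (SE 0.09), Cmc2, beside Cenpn, had -0.76 (SE 0.11), and Nudcd2, beside Hmmr, had -0.42 (SE 0.08), unstimulated in the authors' deposited table. The exception was 2010110K18Rik beside Cdc25c, at -3.20 (SE 0.68) on a mean normalized count of 5.75 in the authors' deposited table.

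No property of the genes ordered the effects closely. Spearman's rho of the unstimulated fold change across the 52 was -0.20 with the length of the longest coding transcript, -0.11 with the genomic span and 0.19 with the mean normalized count. After LPS rho with the mean normalized count was 0.32. These are descriptions across genes measured in the same libraries.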
